A study of Mus musculus with 37 samples.

Results

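Ccl19, Cxcl13, Cr2, Fcer2a, Madcam1, Glycam1 and Ltb, 7 genes of lymph node stroma, vessels and follicles, were followed in 37 arrays of mouse mammary gland. They were chosen by name, with earlier results of these data known. A lymph node carried along with the gland would bring transcripts of such genes into the RNA. Each gene was read through the probe set annotated with its symbol alone and with the highest mean over the arrays. All 7 had such a probe set, among 18820 genes named in this way. Of the 7, 6 also passed the filter on low values, which kept 13174 genes; Madcam1, with a mean of log2 3.94, lay under the limit of log2 4.04.

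The mice were BALB/c females, sham irradiated or irradiated at 10 weeks of age with 100 cGy of gamma rays, a sparsely ionizing radiation, or with 30 cGy or 10 cGy of silicon ions of 350 MeV/amu, which ionize densely. Mammary tissue was taken 1, 4 or 12 weeks later, with 3 samples in each of 11 groups and 4 in the sham group of week 4, and 1 array per sample. Every mouse, sham included, had earlier had the inguinal gland of the other side cleared and had been moved between facilities. Tissue of week 1 was collected at the irradiation site and that of weeks 4 and 12 after return. Between week 1 and the later weeks, time and collection site therefore cannot be told apart. Age at collection rises with week throughout. The labels call the samples mammary tissue, and its defining genes were present on every array, with keratin Krt8 between log2 9.65 and 11.63 and the adipocyte gene Fabp4 between log2 11.84 and 12.51. The 2 arrays least like the rest were replicate 3 of sham week 1 and replicate 1 of sham week 4, with median correlations to the other arrays of 0.932 and 0.946.

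The inguinal mammary fat pad of the mouse encloses a lymph node, and the labels used here do not say whether it was removed before RNA was extracted. In lymph nodes, lymphotoxin made by lymphocytes signals through the lymphotoxin beta receptor on stromal cells, which then activate NF-kappaB and make the chemokines that sort T cells and B cells into separate zones. Blood lymphocytes enter through high endothelial venules, whose sugar-bearing proteins they grip, and B cells gather in follicles around follicular dendritic cells. In whole tissue, fewer cells of a type and less RNA per cell cannot be told apart.

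Because the members' transcripts varied together across the arrays and lymphotoxin is known to act through NF-kappaB, all 7 were searched for motifs. Promoter windows of 4 of them are printed. They are RefSeq sequences of GRCm38.p6, 250 bases before to 50 after the annotated start, read 5′ to 3′ on the strand of the gene; all 7 members matched the table, Fcer2a with several starts. They come from the reference genome and not from the BALB/c mice studied. Capitals mark matches to the NF-kappaB consensus, searched on both strands, or to TATAAA, searched on both strands as well; the motifs do not overlap in these windows. Ccl19 is at chr4:42756316-42756615 on the minus strand, Cxcl13 at chr5:95956689-95956988 on the plus strand, Madcam1 at chr10:79664309-79664608 on the plus strand and Ltb at chr17:35194257-35194556 on the plus strand.
Ccl19: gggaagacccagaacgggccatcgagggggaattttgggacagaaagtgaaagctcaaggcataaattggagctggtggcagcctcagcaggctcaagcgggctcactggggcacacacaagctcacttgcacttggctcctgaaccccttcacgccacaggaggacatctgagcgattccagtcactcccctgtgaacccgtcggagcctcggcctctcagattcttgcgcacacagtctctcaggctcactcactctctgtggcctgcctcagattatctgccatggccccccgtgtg
Cxcl13: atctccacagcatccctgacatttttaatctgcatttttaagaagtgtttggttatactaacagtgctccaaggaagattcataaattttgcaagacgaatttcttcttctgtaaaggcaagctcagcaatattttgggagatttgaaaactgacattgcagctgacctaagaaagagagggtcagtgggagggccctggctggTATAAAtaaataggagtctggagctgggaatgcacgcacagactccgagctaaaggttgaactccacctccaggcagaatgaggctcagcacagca
Madcam1: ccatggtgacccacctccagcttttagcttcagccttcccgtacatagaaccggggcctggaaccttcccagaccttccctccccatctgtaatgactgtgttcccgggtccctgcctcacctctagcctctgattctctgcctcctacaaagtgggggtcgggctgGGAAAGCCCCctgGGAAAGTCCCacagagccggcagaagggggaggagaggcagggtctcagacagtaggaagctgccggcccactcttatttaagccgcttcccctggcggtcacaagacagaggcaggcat
Ltb: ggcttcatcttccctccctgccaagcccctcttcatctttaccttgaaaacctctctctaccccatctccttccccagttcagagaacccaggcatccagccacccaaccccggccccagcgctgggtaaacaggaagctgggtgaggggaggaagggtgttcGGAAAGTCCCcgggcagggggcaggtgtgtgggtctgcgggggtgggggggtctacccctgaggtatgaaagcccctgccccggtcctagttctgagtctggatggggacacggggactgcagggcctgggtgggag
Madcam1 had 2 matches to the consensus, beginning 83 and 70 bases before the start, and Ltb had 1, beginning 87 bases before it, all read on the opposite strand. No other member, printed or not, had a match to it. The Ltb match has the same letters, GGAAAGTCCC on the gene's strand, as the second match of Madcam1. TATAAA stood 46 bases before the start of Cxcl13, and also 33 bases before 1 start of Fcer2a. Of 32851 windows of this length in the table, 8.46% held the NF-kappaB consensus and 13.6% held TATAAA, so a match is a description of these letters and no sign of binding.

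The members varied between samples of the same group, widely in many groups and least in Madcam1. In some groups the values lay close, such as Cxcl13 after 30 cGy Si at week 12 (SD 0.15). Ccl19 spanned log2 4.60 to 9.81 over the 37 arrays, a 37.02-fold range, and Cxcl13 log2 7.26 to 10.80, or 11.6-fold. Cr2 ran from log2 3.14 to 8.58 (43.4-fold), Fcer2a from 2.70 to 8.74 (65.8-fold), Ltb from 4.45 to 8.11 (12.6-fold) and Glycam1 from 3.83 to 12.15 (320-fold), while Madcam1 stayed between 3.31 and 4.91 (3.03-fold). These folds are taken from log2 array values, in which differences near background are compressed. Measured by the SD within groups, Glycam1 (2.89 on the log2 scale) was the most variable of the 13174 tested genes; Fcer2a ranked 17, Cr2 18, Ccl19 30, Cxcl13 71 and Ltb 124, and the median gene had an SD of 0.196. Between 21.6% (Cxcl13) and 36.8% (Madcam1) of each member's variance lay between the 12 groups, against 39.6% for the median gene. These shares are not corrected for the number of groups. With 3 or 4 arrays per group, the spread among arrays alone gives a sizeable share, so they do not measure an effect of treatment or week.

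**Figure D1:**
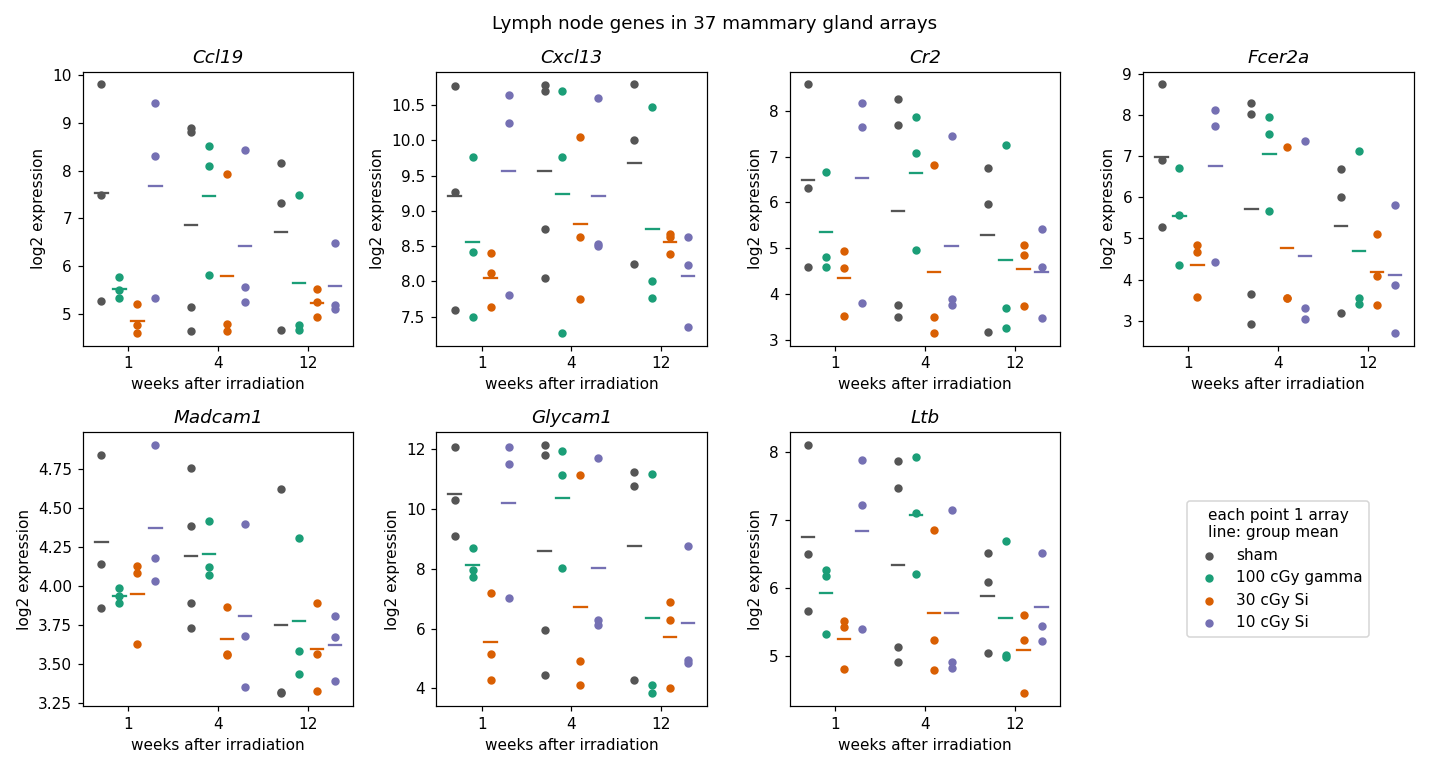
Log2 expression of each member by weeks after irradiation, with 1 point per array, coloured by treatment, and a line at each group mean. Within most groups some arrays stand high and others low, so that the Glycam1 arrays of sham week 4 run from 4.44 to 12.15.

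Ccl19 is a chemokine of T zone stroma that draws in T cells and dendritic cells carrying the receptor Ccr7. At week 1 Ccl19 read log2 5.27, 7.50 and 9.81 in the sham arrays, 5.33, 5.50 and 5.76 after 100 cGy gamma, 4.60, 4.77 and 5.20 after 30 cGy Si, and 5.33, 8.30 and 9.41 after 10 cGy Si. At week 4 it read 4.63, 5.14, 8.80 and 8.89 in sham, 5.82, 8.09 and 8.52 after gamma, 4.65, 4.78 and 7.93 after 30 cGy Si, and 5.26, 5.55 and 8.44 after 10 cGy Si. At week 12 it read 4.66, 7.33 and 8.16 in sham, 4.67, 4.77 and 7.49 after gamma, 4.94, 5.24 and 5.52 after 30 cGy Si, and 5.11, 5.19 and 6.48 after 10 cGy Si. High arrays occurred at every week in sham, and the 30 cGy arrays of week 1 lay wholly below the sham arrays of that week; in the other 8 pairs of groups the values overlapped. The array carries 5 probe sets for Ccl19, which gave nearly the same values (lowest correlation 0.998), and the mouse genome holds near-identical copies of this gene, so which copy was measured is uncertain.

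Cxcl13 is the chemokine of the B cell follicle and binds Cxcr5. At week 1 Cxcl13 read log2 7.59, 9.27 and 10.78 in sham, 7.49, 8.42 and 9.76 after gamma, 7.63, 8.11 and 8.40 after 30 cGy Si, and 7.81, 10.24 and 10.64 after 10 cGy Si. The week 4 readings were 8.04, 8.74, 10.70 and 10.79 in sham, 7.26, 9.76 and 10.71 after gamma, 7.75, 8.64 and 10.04 after 30 cGy Si, and 8.51, 8.54 and 10.60 after 10 cGy Si. At week 12 it read 8.24, 10.00 and 10.80 in sham, 7.76, 8.01 and 10.47 after gamma, 8.39, 8.63 and 8.68 after 30 cGy Si, and 7.35, 8.24 and 8.63 after 10 cGy Si. Each irradiated group overlapped with the sham group of its week.

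Cr2 encodes the complement receptors CD21 and CD35, carried by B cells and follicular dendritic cells. At week 1 Cr2 read log2 4.58, 6.32 and 8.58 in sham, 4.59, 4.80 and 6.65 after gamma, 3.51, 4.57 and 4.95 after 30 cGy Si, and 3.80, 7.64 and 8.16 after 10 cGy Si. At week 4 it read 3.50, 3.76, 7.68 and 8.26 in sham, 4.96, 7.08 and 7.86 after gamma, 3.14, 3.48 and 6.82 after 30 cGy Si, and 3.76, 3.89 and 7.45 after 10 cGy Si. At week 12 it read 3.16, 5.97 and 6.75 in sham, 3.26, 3.69 and 7.26 after gamma, 3.74, 4.84 and 5.07 after 30 cGy Si, and 3.46, 4.58 and 5.41 after 10 cGy Si. The groups overlapped with sham at every week, and the sham arrays of week 4 fell into a high and a low pair.

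Fcer2a encodes CD23, the low-affinity receptor for IgE on mature B cells and follicular dendritic cells. At week 1 Fcer2a read log2 5.28, 6.91 and 8.74 in sham, 4.35, 5.56 and 6.71 after gamma, 3.58, 4.67 and 4.84 after 30 cGy Si, and 4.42, 7.72 and 8.11 after 10 cGy Si. The week 4 readings were 2.93, 3.66, 8.02 and 8.28 in sham, 5.67, 7.52 and 7.95 after gamma, 3.55, 3.55 and 7.21 after 30 cGy Si, and 3.04, 3.31 and 7.37 after 10 cGy Si. The week 12 readings were 3.19, 6.00 and 6.69 in sham, 3.42, 3.56 and 7.13 after gamma, 3.38, 4.10 and 5.10 after 30 cGy Si, and 2.70, 3.86 and 5.81 after 10 cGy Si. The 30 cGy arrays of week 1 lay below all sham arrays of that week, and all other groups overlapped with sham.

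Glycam1 encodes a mucin-like ligand of L-selectin on high endothelial venules and is also known as a gene of the milk-producing mammary epithelium. At week 1 Glycam1 read log2 9.10, 10.30 and 12.05 in sham, 7.72, 7.94 and 8.68 after gamma, 4.28, 5.15 and 7.19 after 30 cGy Si, and 7.04, 11.49 and 12.07 after 10 cGy Si. At week 4 it read 4.44, 5.96, 11.81 and 12.15 in sham, 8.02, 11.13 and 11.93 after gamma, 4.11, 4.90 and 11.13 after 30 cGy Si, and 6.11, 6.27 and 11.70 after 10 cGy Si. At week 12 it read 4.29, 10.76 and 11.22 in sham, 3.83, 4.11 and 11.15 after gamma, 4.01, 6.28 and 6.89 after 30 cGy Si, and 4.84, 4.94 and 8.77 after 10 cGy Si. At week 1 the gamma and the 30 cGy Si arrays both lay below all sham arrays. Madcam1, the venule ligand of integrin alpha4 beta7, had its highest group mean at log2 4.37 ± 0.47 (SD, n = 3) after 10 cGy Si at week 1 and its lowest at 3.59 ± 0.28 (SD, n = 3) after 30 cGy Si at week 12.

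Ltb, the lymphotoxin beta subunit that anchors the ligand to the lymphocyte surface, also varied within groups. At week 1 Ltb read log2 5.66, 6.50 and 8.11 in sham, 5.33, 6.18 and 6.27 after gamma, 4.81, 5.42 and 5.52 after 30 cGy Si, and 5.40, 7.22 and 7.89 after 10 cGy Si. The week 4 readings were 4.91, 5.14, 7.47 and 7.86 in sham, 6.20, 7.11 and 7.92 after gamma, 4.79, 5.23 and 6.86 after 30 cGy Si, and 4.83, 4.91 and 7.15 after 10 cGy Si. The week 12 readings were 5.05, 6.10 and 6.52 in sham, 4.98, 5.02 and 6.70 after gamma, 4.45, 5.24 and 5.60 after 30 cGy Si, and 5.22, 5.44 and 6.52 after 10 cGy Si. Only at week 1 after 30 cGy Si did its arrays lie apart from sham.

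Ordered by group mean, the lowest group was 30 cGy Si at week 1 for Ccl19 (log2 4.86), Cxcl13 (8.05), Cr2 (4.34) and Glycam1 (5.54), 30 cGy Si at week 12 for Madcam1 and Ltb (5.10), and 10 cGy Si at week 12 for Fcer2a (4.12). The highest was 100 cGy gamma at week 4 for Cr2 (6.63), Fcer2a (7.05) and Ltb (7.08), 10 cGy Si at week 1 for Ccl19 (7.68) and Madcam1, sham at week 1 for Glycam1 (10.48) and sham at week 12 for Cxcl13 (9.68). No step between neighbouring groups in these orders was larger than that gene's SD within groups, for any of the 7 members. The widest step of Glycam1 was 1.44 against an SD of 2.89. Steps between 12 ordered means are small in any case, so they cannot show whether the groups differ. Between its highest and lowest group, sham and 30 cGy Si at week 1, the difference of Glycam1 was -4.94.

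The 7 genes varied together from array to array. All 21 pairs were positively correlated over the 37 arrays, with Pearson's r from 0.564 (Cxcl13 with Madcam1) to 0.976 (Cr2 with Fcer2a) and a median of 0.880. Spearman's rho ran from 0.365 to 0.951. By a two-sided permutation test with Benjamini-Hochberg adjustment over the 21 pairs, the highest adjusted p was 0.00032 for r and 0.0269 for rho. The members were chosen with earlier results of these data known, so these p-values are not independent evidence. Without the 2 arrays farthest from the median of the first gene of a pair, r lay between 0.506 and 0.971. Taken as deviations from the group means, r lay between 0.582 and 0.982, and within weeks 1, 4 and 12 alone 20, 21 and 16 of the 21 pairs passed the test. The first principal component of the 7 genes, each scaled to equal variance, held 86.6% of their variance.

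**Figure D2:**
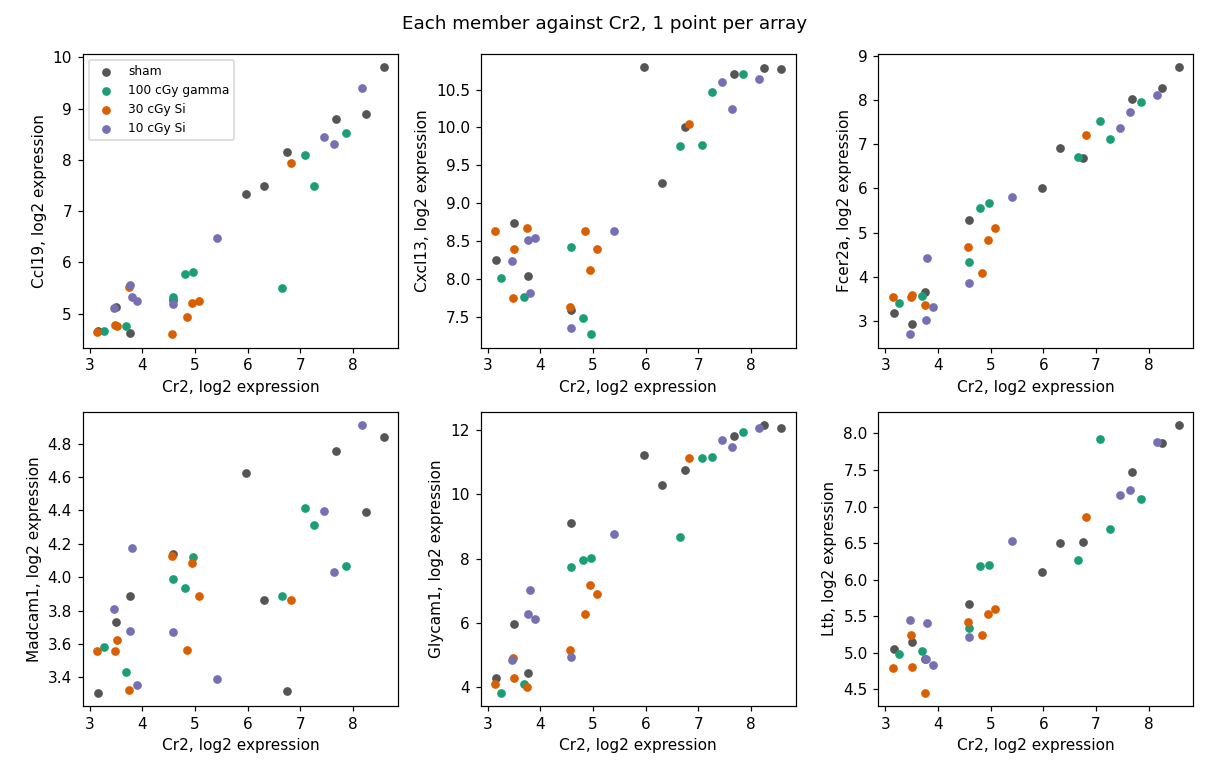
Log2 expression of the other 6 members (vertical) against Cr2 (horizontal), 1 point per array, coloured by treatment. Fcer2a follows Cr2 along the whole range (r = 0.976), whereas Cxcl13 and Madcam1 scatter where Cr2 is low, and 1 gamma array with Cr2 at 6.65 has Ccl19 at 5.50.

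The arrays formed a graded series with no clean break. The widest gap in Ccl19, from log2 6.48 to 7.33, took up 16.3% of its range, and the widest gap of every other member was a smaller share of that member's range. Above it lay 13 of the 37 arrays, which were 6 of 10 sham arrays, 3 of 9 after 100 cGy gamma, 3 of 9 after 10 cGy Si and 1 of 9 after 30 cGy Si. The groups without an array above the gap were 100 cGy gamma at week 1, 30 cGy Si at weeks 1 and 12, and 10 cGy Si at week 12. Above their own widest gaps, Fcer2a and Glycam1 had 13 arrays, Cxcl13 14, Ltb 17, Cr2 24 and Madcam1 4. The Glycam1 arrays were the same as those of Ccl19, and Cxcl13 added replicate 3 of 100 cGy gamma at week 1. Fcer2a had that array in place of replicate 2 of sham at week 12. Ltb, Cr2 and Madcam1 divided the arrays at other places, so not all members share 1 dividing line.

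Within the 24 arrays below the gap the members no longer moved as one. Cr2 and Fcer2a kept an r of 0.895 and Fcer2a and Ltb one of 0.86, but Cxcl13 gave 0.02 with Fcer2a, -0.07 with Ltb and -0.35 with Madcam1. Within the 13 arrays above it, Cxcl13 and Glycam1 gave 0.85 and Cr2 and Fcer2a 0.95, while Cxcl13 and Ltb gave 0.29. In each of these subsets 13 of the 21 pairs passed the permutation test. The split was chosen after the values were seen, and within it the ranges are narrower.

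Single arrays broke the pattern. Replicate 3 of 100 cGy gamma at week 1 had Cr2 at log2 6.65, Fcer2a at 6.71 and Cxcl13 at 9.76, yet Ccl19 at 5.50, which was 1.59 below the line of Ccl19 on the mean of the other members, written here as a residual of -1.59, the farthest of any array for Ccl19. Replicate 2 of sham at week 1 had Glycam1 at 9.10, a residual of 2.43 above its line, with Ccl19 at 5.27 and Ltb at 5.66. Replicate 2 of 100 cGy gamma at week 4 had the lowest Cxcl13 (7.26, residual -1.69) beside Ltb at 6.20.

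Lymphocyte genes followed the members most closely. The mean of the B cell list had an r of 0.71 (Madcam1) to 0.99 (Cr2) with the members, and the T cell list one of 0.69 to 0.97. Of 20 tested B cell genes, 19 had an r above 0.8 with the mean of the 7 members, among them Cd79b, a subunit of the B cell receptor (0.97), Bank1 (0.97) and Cd37 (0.89); the exception was Ebf1 (-0.12), which adipocytes are also known to express. All 18 tested T cell genes were above 0.8, including Il7r, the interleukin-7 receptor (0.89), and Cd3e and Cd3g of the T cell receptor complex (0.92 and 0.93). Over all tested genes, 2.23% had an r above 0.8 and 6.98% one above 0.5. Cd79b ran from log2 4.65 to 10.52 over the arrays and Cd3e from 4.42 to 10.23.

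The genes most like the mean of the members, by Pearson's r over the 37 arrays, were Fcmr, the IgM receptor (0.984), Ms4a1, which encodes CD20 (0.983), the transcription factor Spib (0.976), Tnfrsf13c, the receptor for BAFF (0.974), and Cd22 (0.973). Taken singly, the nearest gene was B3gnt5 for Ccl19 (0.962), Il22ra2 for Cxcl13 (0.914), Ms4a1 for Cr2 (0.988), Cd79b for Fcer2a (0.988), Prkd2 for Madcam1 (0.826), Ms4a1 for Glycam1 (0.954) and Slamf6 for Ltb (0.985). Among the 5 genes nearest to Cxcl13 was its receptor Cxcr5 (0.878). In the opposite direction the most extreme gene was Ryk (-0.801).

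Of the lymphotoxin list, 8 of 14 tested genes had an r above 0.5 with the mean of the members, beside 6.98% of all tested genes, and the mean of the list had 0.89. Tnfrsf14, the receptor HVEM, had 0.73, whereas the receptor Ltbr had -0.24, Tnfrsf1a -0.22 and Rela, an NF-kappaB subunit, 0.43. Cd40, a receptor of B cells, had 0.88, and the pathway genes Birc3 and Nfkb2 had 0.76 and 0.68; these 3 were picked after their values were seen. Of 9 tested homing genes, 7 were above 0.5, with Ccr7, the receptor for Ccl19, at 0.94, integrin subunit Itga4 at 0.85, Cxcr4 at 0.74 and S1pr1, which lets lymphocytes leave the node, at 0.66. The 2 below 0.5, named after their values were seen, were the leukocyte receptors Cxcr3 (0.30) and Ccr2 (-0.12). The homing list shares Ccr7 with the T cell list and Cxcr5 with the B cell list.

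Among vessel and stromal genes, the means of the lists followed the members while single genes differed. With the mean of the members, the venule list had an r of 0.72, the follicular dendritic list 0.75, the reticular list 0.74 and the lymphatic endothelium list 0.73. Some genes stand in more than 1 of these lists, such as Vcam1 (venule and follicular dendritic) and Pdpn (reticular and lymphatic). These values are therefore not separate. The median r over the single tested genes was much lower, at -0.02, 0.29, 0.23 and 0.11 in that order. Of 11 tested venule-list genes, 4 had an r above 0.5, beside 6.98% of all tested genes; Vcam1 had 0.74, but Cd34, Emcn and Podxl, found in most small vessels, had -0.08, -0.18 and -0.21. In the follicular dendritic list 4 of 9 were above 0.5, with Clu at 0.65, Mfge8 at 0.29, Prnp at -0.18 and Sparcl1 at -0.24. In the reticular list 3 of 11 were, while Il6st (0.16), Col14a1 (0.05), Cxcl12 (0.36) and Pdpn (-0.46) were not. Grem1 (0.90) and Stab2, a scavenger receptor of sinus endothelium (0.94), were picked after their values were seen; Stab2 ran from log2 4.01 to 6.60. In the lymphatic list 3 of 7 were above 0.5, and Lyve1, a general lymphatic marker, had 0.11. Probe sets for Ccl21, the other T zone chemokine, carry several gene symbols and were not used here.

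Markers of the gland itself ran against the members or showed little relation to them. Each member was negatively correlated with the mammary epithelium list, with r from -0.49 to -0.42 and adjusted p from 0.00335 to 0.0154 by the permutation test over 119 relations; Krt8 had -0.38 and Krt19 -0.41 with the mean of the members. Glycam1 had an r of -0.14 with the milk list and 0.94 with the B cell list. The milk gene Csn3 had 0.03 and Xdh -0.12 with the mean of the members, and none of 10 tested milk genes was above 0.5. Adipocyte genes (Fabp4 -0.33, Retn -0.17), skeletal muscle genes (Ckm 0.16) and macrophage genes (Csf1r 0.00, Mrc1 -0.35) were below 0.5, except 1 macrophage gene, Marco, at 0.61, which was picked for its value. With single members, the plasma cell list gave r from 0.33 to 0.64, the germinal centre list 0.51 to 0.58, the list of complement receptor partners 0.02 to 0.18 and the brown adipocyte list -0.36 to -0.15. In all, 78 of the 119 relations passed, and 25 within week 12 alone. The lists, like the members, were chosen with earlier results of these data known. The points share 1 normalisation across all arrays.

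**Figure D3:**
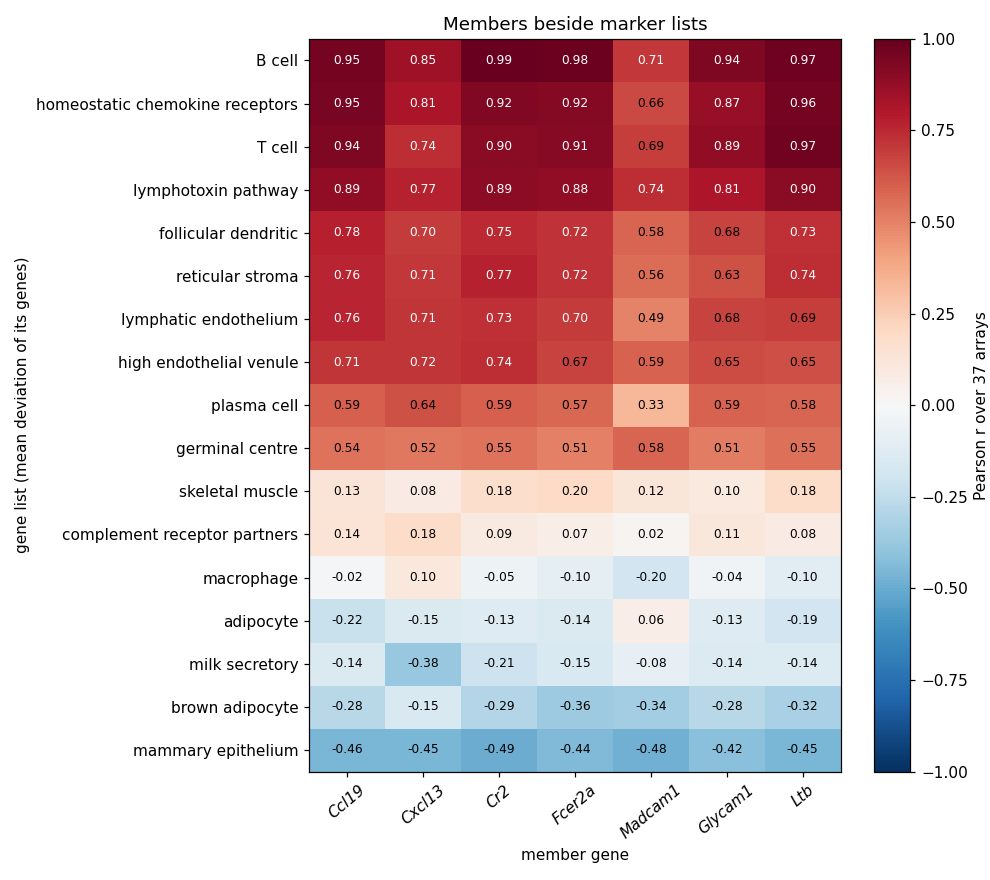
Pearson's r over 37 arrays between each member (columns) and the mean deviation of each gene list (rows), members left out of the lists. B cell, T cell and homing receptor lists are strongly positive, adipocyte, muscle and macrophage lists lie between -0.22 and 0.20, and the mammary epithelium list is negative for all 7 members.

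Against sham, the members were lower on average after 30 cGy Si, but no member passed the adjusted threshold in any comparison. All tested genes were fitted with limma, 1 mean per group, and a gene was called at a Benjamini-Hochberg adjusted p under 0.05. At week 1, Glycam1 differed from sham by -4.94 ± 2.22 (SE) on the log2 scale after 30 cGy Si (unadjusted p = 0.034, limma adjusted p = 0.389) and Ccl19 by -2.67 ± 1.24 (unadjusted p = 0.041, limma adjusted p = 0.398). Fcer2a differed by -2.61 ± 1.43, Cr2 by -2.15 ± 1.40, Ltb by -1.51 ± 0.79 and Cxcl13 by -1.16 ± 0.96. After 100 cGy gamma at week 1 the 6 differences lay between -2.37 (Glycam1) and -0.65 (Cxcl13), and after 10 cGy Si between -0.29 and 0.36, none of them beyond 1 SE for 10 cGy Si.

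The sham arrays of week 1 weighed heavily on these values. Without replicate 3 of that group, the array least like the rest, the differences after 30 cGy Si were -1.53 for Ccl19, -0.38 for Cxcl13, -1.10 for Cr2, -1.73 for Fcer2a, -4.16 for Glycam1 and -0.83 for Ltb. After 100 cGy gamma they were then -0.85 for Ccl19, -0.10 for Cr2, -0.56 for Fcer2a, -1.58 for Glycam1 and -0.16 for Ltb, and Cxcl13 turned to 0.13. Without replicate 2 of the same sham group they were larger, with Ccl19 at -3.80 after 30 cGy Si and -3.12 after gamma, and Cr2 at -3.11 and -2.10.

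At weeks 4 and 12 no member differed from sham beyond the spread, even at an unadjusted p under 0.05. At week 4 after 100 cGy gamma, Glycam1 was 1.77 ± 2.07 (SE) and Fcer2a 1.33 ± 1.34 above sham while Cxcl13 was at -0.32 ± 0.90; after 30 cGy Si Glycam1 was at -1.88 ± 2.07. At week 12 Glycam1 was at -2.39 ± 2.22 after gamma, -3.03 ± 2.22 after 30 cGy Si and -2.57 ± 2.22 after 10 cGy Si. These comparisons within a week share the sham arrays of that week.

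Over the mean of the 3 weeks, the 6 tested members lay below sham after each irradiation, in comparisons that share the same 10 sham arrays. After 30 cGy Si, Glycam1 differed by -3.28 ± 1.25 (SE; unadjusted p = 0.014, limma adjusted p = 0.244), Ccl19 by -1.74 ± 0.70 (unadjusted p = 0.019, limma adjusted p = 0.265) and Ltb by -1.01 ± 0.45 (unadjusted p = 0.032, limma adjusted p = 0.304). Fcer2a was at -1.56 ± 0.81, Cr2 at -1.40 ± 0.79 and Cxcl13 at -1.01 ± 0.54. The median of the 6 was -1.48, beside 0.03 over all tested genes. After 100 cGy gamma the median was -0.46, with Ccl19 at -0.82 ± 0.70, and after 10 cGy Si Glycam1 was at -1.14 ± 1.25. Without replicate 3 of sham week 1, the array with the highest Cr2, Fcer2a, Ccl19 and Ltb, the Ccl19 difference after 30 cGy Si was -1.36, and without replicate 2 of that group it was -2.12.

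At the adjusted threshold 0 of 6 members were called in each comparison; of all tested genes 0.0228% were called after 100 cGy gamma at week 1, 0.0228% after 30 cGy Si at week 1, 0.0835% after 10 cGy Si at week 1 and 0.0304% after 30 cGy Si over the mean of 3 weeks, and 0 in the other 8 comparisons with sham. At an unadjusted p under 0.05, 2 of 6 members passed after 30 cGy Si at week 1, where 12.0% of all tested genes did, and 3 of 6 after 30 cGy Si over 3 weeks, where 14.7% did. In the other comparisons with sham 0 of 6 members passed unadjusted, where the share of all tested genes was 7.82% after gamma and 5.40% after 10 cGy Si at week 1, 5.56%, 8.08% and 3.17% after gamma, 30 cGy and 10 cGy Si at week 4, 2.82%, 5.28% and 4.70% in that order at week 12, and 5.36% and 6.71% after gamma and 10 cGy Si over 3 weeks.

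Arrays that did not overlap with sham were counted in the same way. At week 1, 4 of 6 members stood apart after 30 cGy Si (Ccl19, Fcer2a, Glycam1 and Ltb) where 20.7% of all tested genes did, and 1 of 6 after gamma (Glycam1) where 14.3% did. After 10 cGy Si at week 1 it was 0 of 6 beside 11.8%. At week 4 it was 0 of 6 beside 3.92%, 8.01% and 3.10% of all genes after gamma, 30 cGy Si and 10 cGy Si, and at week 12 0 of 6 beside 5.37%, 7.21% and 8.71%. The members vary together, so they are not separate pieces of evidence.

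The B cell and T cell genes moved with the members in the same comparison. After 30 cGy Si over 3 weeks, 19 of 20 B cell genes and 18 of 18 T cell genes lay below sham, with medians of -1.02 and -1.05 on the log2 scale; 41.6% of all tested genes lay below 0. Among the 20 B cell and 18 T cell genes, 4 and 12 passed an unadjusted p under 0.05, where 14.7% of all tested genes did. At the adjusted threshold 0 passed, beside 0.0304% of all tested genes. The mean deviation of the B cell list ran from -1.21 to 1.08 in the 9 arrays of 30 cGy Si, with a median of -0.76, and from -1.44 to 2.52 with a median of 0.45 in the 10 sham arrays. The T cell list ran from -1.24 to 0.85 (median -0.90) and from -1.19 to 2.33 (median 0.40).

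With the mean of the B cell and T cell lists as a covariate, the differences after 30 cGy Si over 3 weeks were -0.33 ± 0.17 (SE) for Ccl19, -0.04 ± 0.29 for Cxcl13, 0.17 ± 0.23 for Cr2, 0.06 ± 0.22 for Fcer2a, -0.90 ± 0.52 for Glycam1 and -0.10 ± 0.09 for Ltb. In this fit Ccl19 after 100 cGy gamma was at -0.63 ± 0.16 (limma adjusted p = 0.552), beside -0.82 ± 0.70 without the covariate. The members follow these lists closely, and Cr2, Fcer2a and Ltb are themselves expressed by lymphocytes. Smaller differences in this fit were thus largely fixed in advance and are no separate result. The covariate is itself measured on these arrays and does not tell tissue share from expression per cell. What set the lymphocyte genes in each sample was not tested.

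**Figure D4:**
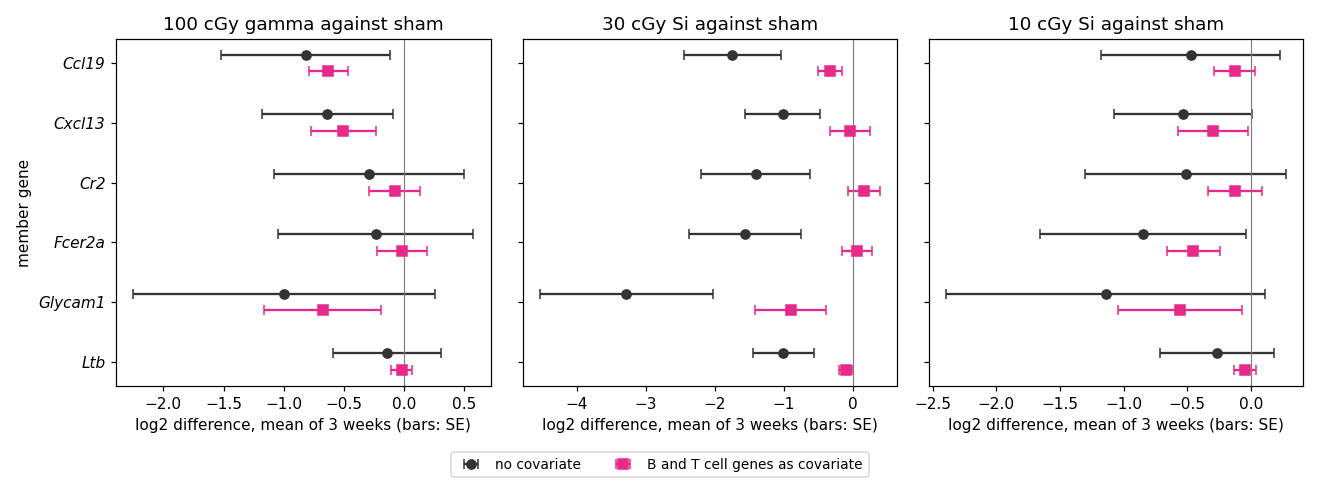
Log2 difference from sham over the mean of 3 weeks for the 6 tested members (points, bars are SE) after each irradiation, without (circles) and with (squares) the B and T cell genes as a covariate; horizontal scales differ between panels. After 30 cGy Si the circles lie between -3.28 and -1.01, and the squares lie between -0.90 and 0.17. The members correlate closely with the covariate genes, so smaller differences with the covariate were largely fixed in advance.

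Weeks 4 and 12 were each compared with week 1 over the mean of the 4 treatments, sham included. Time, age at collection and collection site cannot be told apart in these comparisons. From week 1 to week 12, Glycam1 changed by -1.83 ± 1.11 (SE), Fcer2a by -1.33 ± 0.72, Cr2 by -0.91 ± 0.70, Ltb by -0.62 ± 0.39, Ccl19 by -0.60 ± 0.62 and Cxcl13 by -0.08 ± 0.48, and from week 1 to week 4 the 6 lay between -0.38 (Fcer2a) and 0.36 (Cxcl13). None of the 6 was called, adjusted or unadjusted, although 35.5% of all tested genes were called between weeks 12 and 1 (44.7% unadjusted) and 25.8% between weeks 4 and 1 (36.4% unadjusted). In the F test of any difference among the 12 groups 0 of 6 members passed either threshold, beside 15.8% of all genes adjusted and 29.1% unadjusted. In the F test of whether an effect differs between weeks 0 of 6 passed, beside 0 adjusted and 3.96% unadjusted.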

How the data were processed

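Each of 37 mammary tissue samples gave total RNA for 1 Affymetrix array. The deposited values are log2 expression values made with RMA and oligo, per the submitters' processing notes; versions are not given in the sources used here. RMA adjusts for background and makes the arrays' distributions alike. Differences between values near background remain compressed. The table held 35556 probe sets, of which 21218 had 1 gene symbol; 1881 with several and 12457 not listed were left out. For each gene the probe set with the highest mean was used, and genes above the 30th percentile of means were tested.

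The members and gene lists were chosen with earlier results of these data known. Groups came from sample titles. The labels number the replicates without saying whether each is a separate mouse, so a p-value covers only the spread among these arrays, which may be technical. Differences were tested with limma 3.58.1 in R 4.3.3 (lmFit and eBayes, 12 group means, 25 residual and 3.40 prior degrees of freedom, two-sided, Benjamini-Hochberg within a comparison), checked on simulated data. Correlations used 100000 permutations (smallest p 1e-05) in NumPy 2.4.6 and SciPy 1.17.1. A list's value on an array is the mean deviation of all its matched genes, tested or not, from their means. Named genes are all members, the 5 genes most like each (passing over predicted genes), and up to 4 genes of highest mean per list; others are said to be picked after their values were seen. Alternatives were another filter, probe set means, quantile normalisation, a trended robust fit, array weights, a replicate block, the comparison's groups alone, a lymphocyte covariate and leaving out arrays. The number of arrays limits the precision.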

Additional observations from a re-analysis of the deposited data

How the results depend on the processing

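No member was called in any of the 16 comparisons, and 745 of 748 counts under the alternatives were also 0. Without the filter on low values, Madcam1 entered and 1 member was called between weeks 12 and 1 (-0.45 on the log2 scale, limma adjusted p = 0.0398). With array weights 1 member was called there (Fcer2a, limma adjusted p = 0.0413) and 3 in the test of any difference among groups (Ccl19, Glycam1 and Ltb, limma adjusted p from 0.043 to 0.0447); the cause was not tested. Of 3908 member differences under alternatives, 126 changed sign, none of them called; 83 of these came from leaving out 1 array and 25 from the lymphocyte covariate. Same-numbered arrays of different groups showed no clear pairing (median correlation of deviations -0.00380, 74 of 198 pairs above 0.1). For arrays of different numbers the median was -0.00672, with 143 of 429 pairs above 0.1. With the replicate number as a block, 0 members were called in any comparison, and Ccl19 after 30 cGy Si over 3 weeks had a limma adjusted p of 0.374; sham week 4 replicate 4 has no partner there. Leaving out each array in turn gave 0 to 0 called members in each comparison.

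Above and below the widest gap in Ccl19, a split chosen after seeing the data, 13 and 13 of 21 member pairs passed, and 34 and 18 of 119 relations with lists; 25 passed within week 12, fewer arrays in each case. Below the gap r turned to -0.35 for Cxcl13 with Madcam1 and -0.0723 with Ltb, -0.22 with T cell genes and -0.00456 with lymphotoxin genes, to 0.0275 for Ccl19 with epithelium, to -0.16, -0.11 and -0.16 for Madcam1 with follicular dendritic, reticular and lymphatic genes, and to -0.0520 for Glycam1 with reticular genes. Above it the plasma cell list gave -0.0334, -0.13, -0.19 and -0.0469 with Ccl19, Cr2, Fcer2a and Ltb. Within week 12 Fcer2a gave 0.17 with brown adipocyte genes. Signal near background limits Madcam1 and the low arrays of each member.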
